A study of Homo sapiens with 6 samples.

Results

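The genes that copy DNA were examined in a BRAF inhibitor-sensitive human melanoma line and in its resistant derivatives. The 45 genes were picked by name for their role in origin licensing (8 genes), the MCM helicase ring (6), origin firing (10), the polymerases and primase (9), the clamp loader, RPA and flap processing (8), and nucleotide supply (4). They were 45 of the 60617 gene IDs in the files, and each of them passed the filter on low values that left 16565 genes for testing. Bulk RNA-seq of 6 libraries was used, with 2 libraries of PBRT15 cells given 500 nM PLX8394, 2 of PBRT16 cells given 500 nM PLX8394, and 2 of 1205LuTR parental cells given DMSO. PLX8394 is a BRAF inhibitor of the paradox breaker type, designed not to activate ERK signaling in cells with wild-type BRAF. PBRT15 and PBRT16 came from paradox breaker resistant tumors of 1205Lu and are kept in the drug, and 1205LuTR carries a GAL4-ELK1 reporter. The resistant line and the drug go together, so their parts in a difference from the DMSO-treated parental cells cannot be told apart. The library names carry a different prefix for each group, and if it marks a batch, batch and group cannot be told apart either. Nothing in the sources tells whether both libraries of a line were grown as separate cultures. The p-values therefore reflect the spread between these 6 libraries alone, which may be technical.

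Before a cell divides, the origin recognition complex marks start sites on DNA, and CDC6 and CDT1 load the MCM ring onto them. A kinase of CDC7 and DBF4, together with several recruitment factors, then turns the ring into a working helicase, behind which primase, the polymerases and the clamp loader build new strands from freshly made nucleotides. Many of these genes are known targets of E2F transcription factors, which are released from RB when cells commit to S phase, and in melanoma BRAF signaling is known to drive that commitment.

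Stretches of promoter are given for genes whose values are described below, because E2F binding words and CCAAT boxes near the start site are known features of this gene class. The search used the RefSeq promoters of GRCh38.p14, 250 bases before to 50 after each start, for the 38 genes that matched by symbol. The words TTTCCCGC, TTTGGCGC, TTTCGCGC and TTTGCCGC were taken as E2F sites on either strand, and these can overlap each other where they run into a palindrome. At least 1 such word was present in 18 of the 38 genes (47.4%), against 3.31% of all 35116 promoters, or 3.99% of the 27305 genes they belong to. CCAAT on either strand was present in 22 of the 38 (57.9%), against 39.7% of all genes, and the GC box GGGCGG in 28 (73.7%), against 48.3%, again on either strand. The CHR word TTTGAA, known from mitotic genes, was present in 2 of the 38 (5.26%), against 18.2% of all genes. In the windows below, 200 bases before to 20 after the start, capitals mark E2F words and CCAAT boxes on either strand. For a gene with several starts, the first start with an E2F word was shown, or the first listed start where none has one. MCM6 (chr2:135876424-135876643, minus strand), which holds 4 words in overlapping pairs, and MCM3 (chr6:52284723-52284942, minus strand) and MCM7 (chr7:100101378-100101597, minus strand), with 2 words each, stand for the helicase ring. POLA1 (chrX:24693718-24693937, plus strand), POLE2 (chr14:49688195-49688414, minus strand), RFC3 (chr13:33817949-33818168, plus strand) and TYMS (chr18:657453-657672, plus strand) hold 1 word each.
MCM6: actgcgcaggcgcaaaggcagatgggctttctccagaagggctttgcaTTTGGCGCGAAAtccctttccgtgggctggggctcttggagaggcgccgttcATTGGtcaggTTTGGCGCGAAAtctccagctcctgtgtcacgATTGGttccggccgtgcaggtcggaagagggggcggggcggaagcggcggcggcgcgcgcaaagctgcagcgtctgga
MCM3: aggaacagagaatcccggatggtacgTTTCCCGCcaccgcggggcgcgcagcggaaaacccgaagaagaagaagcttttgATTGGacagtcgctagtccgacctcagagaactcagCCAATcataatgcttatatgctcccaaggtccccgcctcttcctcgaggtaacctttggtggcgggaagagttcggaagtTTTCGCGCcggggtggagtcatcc
MCM7: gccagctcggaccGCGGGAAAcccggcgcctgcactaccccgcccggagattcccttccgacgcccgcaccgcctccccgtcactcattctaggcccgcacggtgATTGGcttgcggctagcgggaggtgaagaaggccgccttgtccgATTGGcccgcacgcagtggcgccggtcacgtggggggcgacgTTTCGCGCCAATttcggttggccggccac
POLA1: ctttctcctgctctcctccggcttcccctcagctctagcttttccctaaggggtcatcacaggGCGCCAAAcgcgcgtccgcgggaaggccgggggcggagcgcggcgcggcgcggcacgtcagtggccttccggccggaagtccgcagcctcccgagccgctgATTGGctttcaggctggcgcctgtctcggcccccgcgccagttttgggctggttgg
POLE2: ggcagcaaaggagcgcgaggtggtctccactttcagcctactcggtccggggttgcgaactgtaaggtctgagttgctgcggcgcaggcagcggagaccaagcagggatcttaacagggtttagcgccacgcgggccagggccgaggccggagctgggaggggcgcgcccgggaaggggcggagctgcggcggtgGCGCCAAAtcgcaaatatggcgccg
RFC3: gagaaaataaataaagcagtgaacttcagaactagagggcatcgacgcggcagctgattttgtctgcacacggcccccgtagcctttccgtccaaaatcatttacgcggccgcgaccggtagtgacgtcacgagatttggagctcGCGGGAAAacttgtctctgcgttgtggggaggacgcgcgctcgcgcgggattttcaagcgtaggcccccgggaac
TYMS: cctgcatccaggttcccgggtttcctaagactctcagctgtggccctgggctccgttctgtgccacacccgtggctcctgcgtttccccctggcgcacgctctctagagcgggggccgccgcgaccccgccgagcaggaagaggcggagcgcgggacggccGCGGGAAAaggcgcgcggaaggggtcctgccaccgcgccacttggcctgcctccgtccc

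CDT1 (chr16:88803589-88803808, plus strand) also holds 1 word, and its value moved the other way, as given below. TK1 (chr17:78187185-78187404, minus strand) and RFC5 (chr12:118016503-118016722, plus strand) hold no E2F word and no CCAAT in this window, which says only that these letters are not there. TK1 has CCAAT at another listed start and is counted among the genes with it. RFC5 has CCAAT at position -239 from a listed start, outside the window shown, and is counted as well.
CDT1: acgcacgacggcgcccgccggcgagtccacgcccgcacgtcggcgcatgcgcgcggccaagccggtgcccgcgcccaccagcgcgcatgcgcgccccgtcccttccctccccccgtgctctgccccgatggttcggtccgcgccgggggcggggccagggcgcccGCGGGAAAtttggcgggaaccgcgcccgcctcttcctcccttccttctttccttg
TK1: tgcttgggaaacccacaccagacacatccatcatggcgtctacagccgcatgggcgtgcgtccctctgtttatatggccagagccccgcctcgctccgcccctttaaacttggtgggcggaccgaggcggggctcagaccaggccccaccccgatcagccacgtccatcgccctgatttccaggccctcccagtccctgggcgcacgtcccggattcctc
RFC5: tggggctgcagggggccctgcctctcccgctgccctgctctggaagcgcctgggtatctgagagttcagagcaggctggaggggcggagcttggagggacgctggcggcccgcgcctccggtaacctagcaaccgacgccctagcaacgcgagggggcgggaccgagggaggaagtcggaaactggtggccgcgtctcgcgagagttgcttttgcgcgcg

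The 6 libraries were alike in total. Their normalized signal summed to between 27877963 and 29580752, with 4.09% to 6.30% of it on mitochondrial genes, and the 2 libraries of a group correlated at 0.984 to 0.986 on the log2 scale. As a check of the labels, the neural crest factor SOX10 had 0 and 0.791 in PBRT15 and 1.49 and 0.778 in PBRT16, against 4360.5 and 4103 in the parental libraries. S100B had a similar pattern, at no more than 1.67 in the resistant libraries, against 10992 and 8075 in parental cells. The lineage factor MITF had 823 and 927 in PBRT15 and 2209.5 and 2159 in PBRT16, against 109 and 113 in parental cells, while PMEL, MLANA, TYR, DCT and TYRP1 were at 29.4 or less in each. The immune markers PTPRC, CD3E, LYZ and CD14 and the endothelial markers PECAM1, VWF, CDH5 and KDR were also at 29.4 or less in every library, with CD3E at 0, while the lysosomal gene CD68 had 2722 and 2194 in PBRT15 and 2146 and 3118 in PBRT16, against 819 and 1260.0 in parental cells. The 6 fibroblast markers summed to 78073 and 85520 in PBRT15 and 18784 and 25095 in PBRT16, against 6900 and 6005 in parental cells, and 4 of them rose in PBRT15. In PBRT16 3 rose, while PDGFRA fell. Most of that sum was COL1A1 in PBRT15, at 60705 and 67057, while LUM and COL3A1 were at 35.7 or less everywhere. The part of these marker differences in the replication gene values was not tested.

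Both falls and rises were found among the replication genes, with more falls. In PBRT15 8 of the 45 fell and 3 rose at an adjusted p of at most 0.05, which are 17.8% and 6.67% of them. Of all 16565 genes tested 19.5% fell and 21.6% rose, so the share that fell was near the background and the share that rose was below it. In PBRT16 14 of the 45 fell (31.1%) and 2 rose (4.44%), against 19% and 21.1% of all genes, so with all 6 libraries the share that fell was above the background and the share that rose below it. The first of these did not hold when a PBRT16 or a parental library was left out, as given next. Together the 45 genes took 0.404% and 0.366% of the total signal in PBRT15 and 0.345% and 0.359% in PBRT16, against 0.443% and 0.458% in parental cells. The median log2 difference of the 45 was -0.19 in PBRT15 and -0.29 in PBRT16, each against parental cells, while the median over all genes was within 0.01 of 0 in both. Both comparisons use the same 2 parental libraries, so neither is independent support for the other.

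The counts depended on single libraries, and so did those of all genes. For falls in PBRT15, the count was 4 (8.89%) without PBRT15 replicate 2, 2 (4.44%) without parental replicate 1 and 5 (11.1%) without parental replicate 2. Of all genes 13.03% fell in the fit without PBRT15 replicate 2, 8.61% without parental replicate 1 and 9.58% without parental replicate 2, so the share was below the background in 2 of these fits and above it in 1. For falls in PBRT16, the count was 3 (6.67%) without PBRT16 replicate 1, against 11.8% of all genes, and 5 (11.1%) without PBRT16 replicate 2, against 11.8%. It was 3 (6.67%) without parental replicate 1, against 9.02% of all genes, and 3 (6.67%) without parental replicate 2, against 10.3%. Of these 4 fits, the one without PBRT16 replicate 2 had a share that fell near the background, and the others had a share below it. With all 6 libraries the share that fell in PBRT16 was above the background. Without a PBRT15 library it was 24.4%, against 18.1% and 18.2% of all genes. Rises were 1 to 3 genes in PBRT15 and 1 or 2 in PBRT16 in these fits. Of the 28 calls in the 3 comparisons, 6 held in each of 15 alternative settings. They were POLA1, PRIM2 and RPA2 in PBRT15 and PRIM2, RFC3 and RFC5 in PBRT16, each against parental cells.

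The same values can be described by direction, without a test. Both PBRT15 libraries lay below both parental libraries for 27 of the 45 genes (60.0%) and above them for 8 (17.8%), against 37.9% and 37% of all genes. Both PBRT16 libraries lay below for 33 (73.3%) and above for 5 (11.1%), against 38.3% and 37.7% of all genes. The changes were small. None of the 45 passed both the test and a 2-fold difference in PBRT15, where 9.85% of all genes fell and 13.8% rose by that rule. In PBRT16 GINS4 fell and PRIM2 rose by at least 2-fold, against 9.95% and 13.1% of all genes. These are bulk libraries, in which fewer cells in S phase and less RNA of a gene per cell cannot be told apart.

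**Figure D1:**
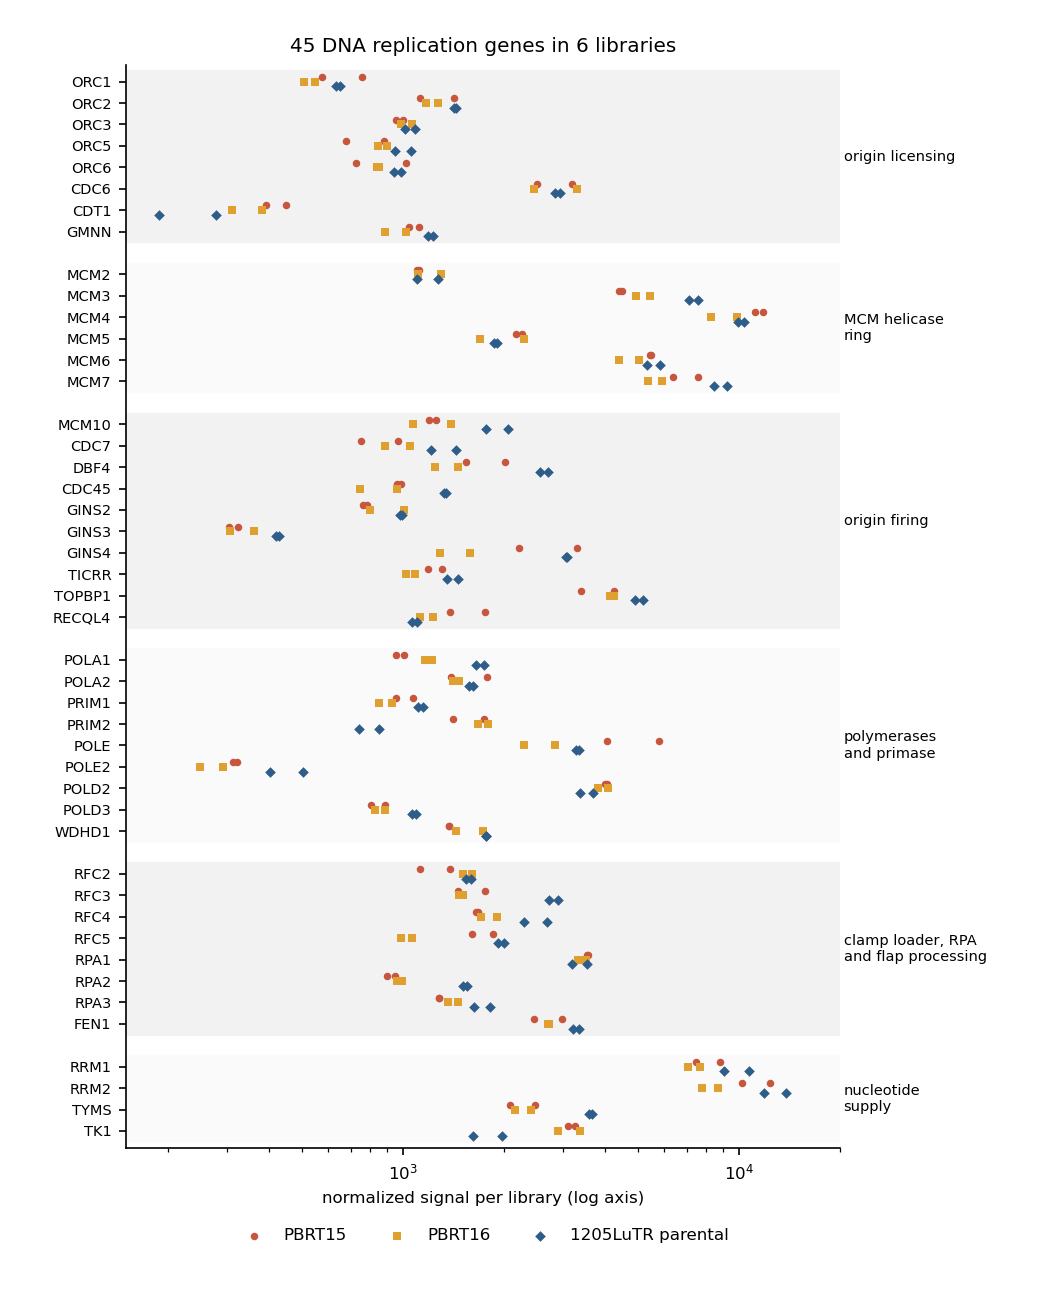
Normalized signal of each of the 45 genes (rows, grouped by role) in each library on a log axis, with circles for PBRT15, squares for PBRT16 and diamonds for 1205LuTR parental, 2 points per group. Most parental diamonds sit to the right of both resistant lines, while CDT1, PRIM2 and TK1 have their parental points to the left.

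Origin licensing held 1 call over both lines. Of its 8 genes none fell by limma in either line and 1 rose in PBRT15. Of all genes 19.5% fell and 21.6% rose in PBRT15, while 19% fell and 21.1% rose in PBRT16. The gene that rose was CDT1, the loader that brings MCM rings to origins. CDT1 had 448 and 392 in PBRT15 and 311 and 381 in PBRT16, against 187 and 279 in the parental libraries. Its log2 difference was 0.87 ± 0.24 (SE) in PBRT15 with an adjusted p of 0.0402, and 0.59 ± 0.24 in PBRT16 with an adjusted p of 0.109. All 4 resistant libraries were above both parental ones, which themselves differed widely. Per kilobase of exon CDT1 had the lowest signal of the 8 genes, 152 in PBRT15 and 125 in PBRT16, against 84.4 in parental cells, and it lost its call in 5 of the 6 fits that left out 1 library. Geminin (GMNN), which holds CDT1 in check, had 1120.1 and 1039.7 in PBRT15 and 886 and 1022 in PBRT16, against 1189.9 and 1227 in parental cells, a difference that did not pass the test (-0.16 and -0.34). Here and below, a pair of log2 differences is for PBRT15 and then PBRT16, each against parental cells. CDC6, the other loading factor, had overlapping values in all groups, with 3177 and 2499.7 in PBRT15, 2456 and 3309 in PBRT16 and 2939.5 and 2841 in parental cells. The 95% interval of its log2 difference ran from -0.57 to 0.50 in PBRT15, which leaves room for a change of up to about the size seen in other members. The 5 subunits of the origin recognition complex among these 8 genes had log2 differences of -0.37 (ORC5) to 0.04 (ORC1) in PBRT15. In PBRT16 they had -0.28 (ORC1) to -0.04 (ORC3), and none passed the test.

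The 6 subunits of the MCM ring, which form a single hexamer, split into those that fell and those that did not. MCM3 (chr6:52264014-52284881, minus strand) had 4387 and 4501 in PBRT15 and 4928 and 5422 in PBRT16, against 7572 and 7083 in parental cells. Every resistant library was below every parental one. The log2 difference was -0.72 ± 0.12 in PBRT15 (adjusted p = 0.00932) and -0.50 ± 0.12 in PBRT16 (adjusted p = 0.0268). MCM7 had 7583 and 6374 in PBRT15 and 5372 and 5921 in PBRT16, against 8430.2 and 9207 in parental cells. The difference passed the test in PBRT16 (-0.64 ± 0.14, adjusted p = 0.0237) and missed it in PBRT15 (-0.34 ± 0.14, adjusted p = 0.122), although all 4 resistant libraries were below both parental ones. Exons of the antisense neighbor AP4M1 cover 7.90% of MCM7's exons. AP4M1 had a mean value of 433, against 7148 for MCM7.

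The other ring subunits gave no call. MCM4 had 11801 and 11136 in PBRT15 and 8286 and 9907 in PBRT16, against 10349 and 9936 in parental cells, thus above parental in PBRT15 and below it in PBRT16. Neither difference passed the test (0.18 and -0.16). MCM2, MCM5 and MCM6 had log2 differences between -0.09 and 0.23 in PBRT15 and between -0.24 and 0.06 in PBRT16. Per kilobase of exon, MCM3, MCM7, MCM6 and MCM4 had a mean parental signal of 2010.4, 1778, 1346 and 1029.5, and MCM5 and MCM2 stood well below them at 259.8 and 252. That gap was also present in PBRT15, where MCM7 and MCM2 had 1407 and 235, and in PBRT16, where they had 1138 and 256. Over the length of the canonical transcript, a choice made after seeing the data, the parental order changed. MCM7, MCM4, MCM3 and MCM6 then had 3575, 2497, 2388 and 1483, with MCM5 and MCM2 again lowest at 546 and 346.

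Of the 10 genes of origin firing, 4 fell in PBRT16 and none rose, against 19% and 21.1% of all genes. In PBRT15 1 fell and none rose, against 19.5% and 21.6% of all genes. The median log2 difference of the 10 was -0.42 in PBRT15 and -0.43 in PBRT16. DBF4, the regulatory subunit that activates the kinase CDC7, had 2008 and 1543 in PBRT15 and 1458 and 1249 in PBRT16, against 2711 and 2554 in parental cells. It fell in PBRT16 (-0.96 ± 0.18, adjusted p = 0.0133) and narrowly missed the test in PBRT15 (-0.58 ± 0.18, adjusted p = 0.0544). CDC7 itself had 971 and 751 in PBRT15 and 1049 and 887 in PBRT16, against 1438 and 1211 in parental cells, with log2 differences of -0.63 and -0.45 that did not pass. For both kinase genes all 4 resistant libraries were below the parental ones.

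MCM10, which helps the loaded helicase to start, had 1254 and 1199 in PBRT15 and 1072 and 1394 in PBRT16, against 1771 and 2055 in parental cells. Its log2 differences were alike in PBRT15 and PBRT16 (-0.64 ± 0.18 and -0.64 ± 0.18, adjusted p = 0.041 and 0.0408), and both passed. CDC45, a core part of the active helicase, had 989 and 958 in PBRT15 and 745 and 959 in PBRT16, against 1340.4 and 1326 in parental cells. It fell in PBRT16 (-0.66 ± 0.16, adjusted p = 0.0282), while its -0.45 in PBRT15 did not pass. No library of either line reached the parental values of these 2 genes.

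GINS4, a subunit of the GINS complex that joins CDC45 and the ring, differed most between the lines among the firing genes. It had 3309 and 2219 in PBRT15 and 1290.4 and 1581 in PBRT16, against 3052 and 3090.1 in parental cells. PBRT15 had 1 library on either side of the parental level, and both PBRT16 libraries were below the other 4. The log2 difference was -1.10 ± 0.23 in PBRT16 (adjusted p = 0.0194, 95% interval -1.70 to -0.50) and -0.18 in PBRT15 (95% interval -0.78 to 0.42). Between the lines it was -0.92 ± 0.23, which missed the test at an adjusted p of 0.0601. GINS2 and GINS3 did not pass in either line, with log2 differences of -0.35 and -0.43 in PBRT15 and -0.14 and -0.35 in PBRT16. An antisense transcript with a mean value of 138 covers 21.0% of GINS4's exons, where GINS4 had a mean of 2424.

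The remaining firing genes recruit helicase parts to origins. TICRR fell short of the test in PBRT16 by a small margin (-0.41 ± 0.12, adjusted p = 0.0506), with 1309 and 1189 in PBRT15 and 1024 and 1087 in PBRT16, against 1352 and 1456 in parental cells. TOPBP1, which also serves the checkpoint kinase ATR, was below parental cells in all 4 resistant libraries without passing (-0.41 and -0.27). RECQL4, a helicase of the same step, was the firing gene with the highest values in PBRT15 relative to parental cells. RECQL4 had 1753 and 1381 in PBRT15 and 1121 and 1226 in PBRT16, against 1105 and 1065 in parental cells, and its 0.52 in PBRT15 just missed the test (adjusted p = 0.0532).

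**Figure D2:**
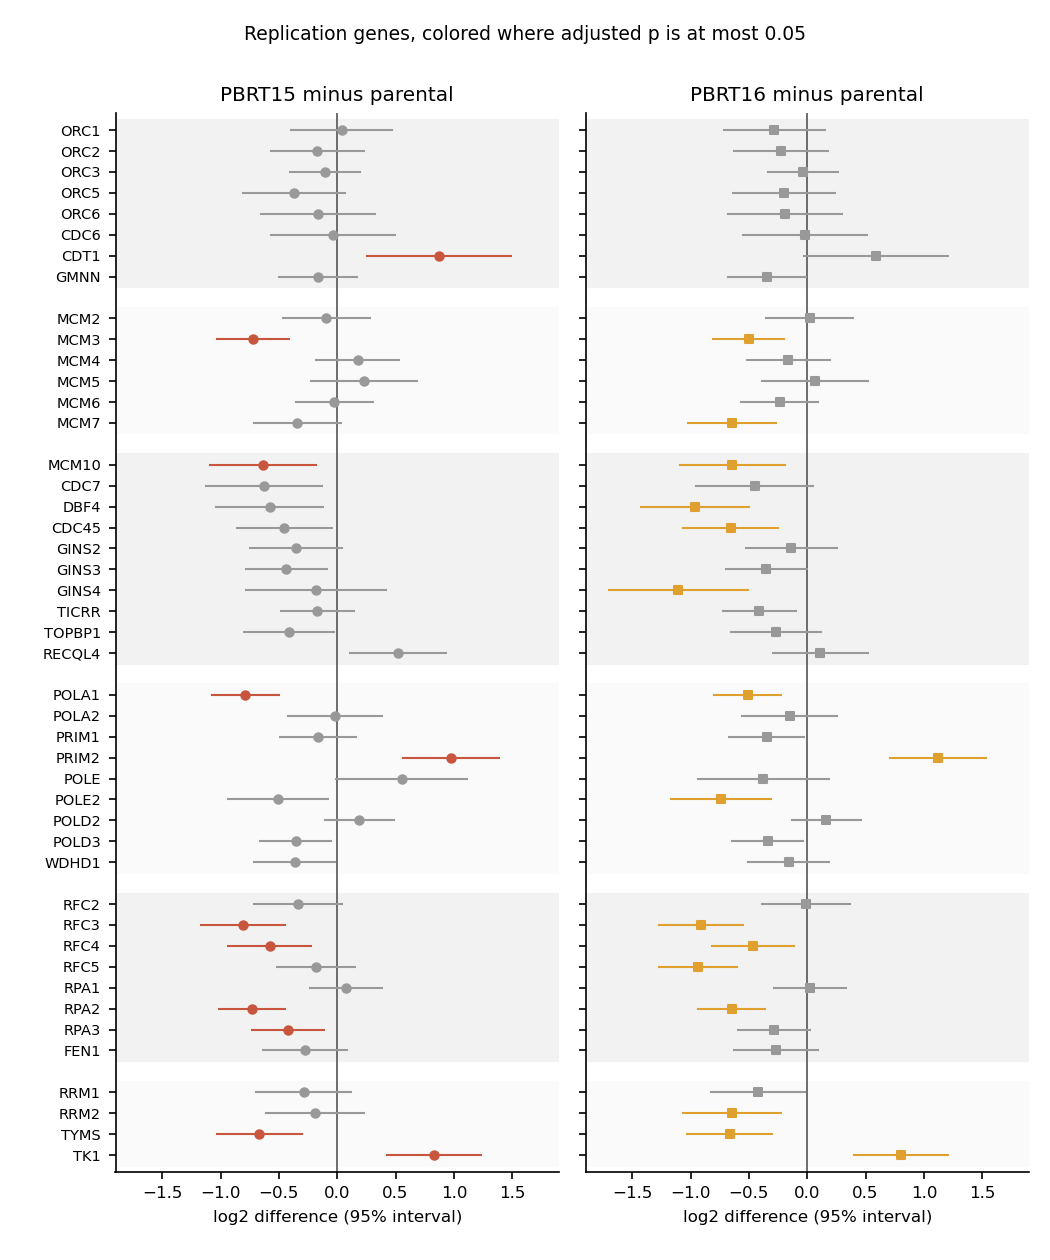
Log2 difference of each gene from 1205LuTR parental cells (points) with its 95% interval (bars), for PBRT15 on the left and PBRT16 on the right, on the log2(value + 1) scale. Colored points are those with an adjusted p of at most 0.05, 3 to the right and 8 to the left of 0 in PBRT15 and 2 to the right and 14 to the left in PBRT16.

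Among the polymerases, the primase subunit PRIM2 was the gene that rose most. PRIM2 (chr6:57314805-57646850, plus strand), which carries the iron-sulfur domain of primase, had 1738 and 1406 in PBRT15 and 1672 and 1789.5 in PBRT16, against 850.4 and 742 in parental cells. Its log2 difference was 0.98 ± 0.16 in PBRT15 (adjusted p = 0.00924) and 1.12 ± 0.16 in PBRT16 (adjusted p = 0.00616). The resistant libraries were all well above the parental ones, and the call held in each of the 15 alternative settings in both lines. The pseudogene PRIM2BP, which could share reads with it, had a value of at most 1.89. PRIM1, the catalytic partner in the same dimer, had 1069 and 952 in PBRT15 and 928 and 848 in PBRT16, against 1111 and 1149.7 in parental cells, with log2 differences of -0.16 and -0.35 that did not pass. Primase works in a complex with DNA polymerase alpha. Its catalytic subunit POLA1 had 1008 and 957 in PBRT15 and 1165 and 1218 in PBRT16, against 1739 and 1655 in parental cells. POLA1 fell in PBRT15 (-0.79 ± 0.11, adjusted p = 0.0061) and in PBRT16 (-0.51 ± 0.11, adjusted p = 0.0218), with no overlap between the groups. The accessory subunit POLA2 had log2 differences of -0.02 and -0.15 and no call, so that within this 4-gene complex 1 gene rose, 1 fell and 2 gave no call.

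DNA polymerase epsilon copies the leading strand, and its genes POLE and POLE2 had log2 differences of opposite sign in PBRT15 but not in PBRT16. Its catalytic subunit POLE had 5783 and 4055 in PBRT15 and 2828 and 2290.1 in PBRT16, against 3335 and 3271 in parental cells. PBRT15 was above and PBRT16 below the parental libraries, and neither difference passed (0.55 and -0.38). Its partner POLE2 had 313 and 321 in PBRT15 and 292 and 248 in PBRT16, against 505 and 403 in parental cells. It fell in PBRT16 (-0.74 ± 0.17, adjusted p = 0.0234) and missed the test in PBRT15 (-0.51, adjusted p = 0.0649). POLD2 and POLD3, accessory subunits of polymerase delta, the lagging strand enzyme, had log2 differences of opposite sign and no call. POLD2 had log2 differences of 0.19 and 0.16 and POLD3 of -0.36 and -0.34. WDHD1, which ties polymerase alpha to the helicase, was at -0.36 and -0.16, without a call.

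The clamp loader and the single-strand binding protein RPA held 4 of the 8 falls in PBRT15. Of their 8 genes 4 fell in PBRT15 and 4 in PBRT16, and none rose in either. Of all genes 19.5% fell and 21.6% rose in PBRT15, while 19% fell and 21.1% rose in PBRT16. RFC3, a small subunit of the loader that places the PCNA clamp on DNA, had 1761 and 1463 in PBRT15 and 1512 and 1465 in PBRT16, against 2899 and 2715 in parental cells. The groups were far apart, with log2 differences of -0.81 ± 0.14 in PBRT15 (adjusted p = 0.0109) and -0.91 ± 0.14 in PBRT16 (adjusted p = 0.00756). RFC4, another small subunit, had 1678 and 1649 in PBRT15 and 1704 and 1904 in PBRT16, against 2686 and 2301 in parental cells. It fell in PBRT15 (-0.58, adjusted p = 0.027) and stood at the threshold in PBRT16 (-0.46, adjusted p = 0.0499), a call that was lost in all 6 fits that left out 1 library.

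RFC5 (chr12:118013588-118033130, plus strand), also of the loader, was the 1 gene of the 45 whose difference between the resistant lines passed the test. RFC5 had 1852 and 1610.0 in PBRT15 and 989.7 and 1067 in PBRT16, against 1925 and 2004 in parental cells. Both PBRT16 libraries were far below the other 4, while PBRT15 lay just under the parental ones. The log2 difference was -0.93 ± 0.13 in PBRT16 (adjusted p = 0.00572) and -0.19 ± 0.13 in PBRT15 (adjusted p = 0.3). RFC2, whose product sits beside these subunits in the loader, had 1379 and 1123 in PBRT15 and 1505 and 1612 in PBRT16, against 1547 and 1594 in parental cells, and no call. WSB2, an antisense neighbor with a mean value of 4026, overlaps 5.72% of RFC5's exons. The library kit kept strand, but no source used here gives the strand setting of the counting.

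RPA coats the single strands left behind the helicase. RPA2 had 949 and 899 in PBRT15 and 959.6 and 995 in PBRT16, against 1511 and 1554 in parental cells. With log2 differences of -0.73 ± 0.11 and -0.65 ± 0.11 (adjusted p = 0.00724 and 0.0103), it fell in both lines and the libraries of each group lay close together. RPA3, the smallest subunit, had 1280.4 and 1280.0 in PBRT15 and 1365 and 1456 in PBRT16, against 1628 and 1814 in parental cells. Its fall passed in PBRT15 (-0.42, adjusted p = 0.0436), where each fit that left out 1 library lost it, and did not pass in PBRT16 (-0.29, adjusted p = 0.118). RPA1, the large subunit, showed no such pattern, with 3522 and 3561 in PBRT15 and 3514 and 3322 in PBRT16, against 3186 and 3542 in parental cells. The 95% interval of its log2 difference ran from -0.23 to 0.38 in PBRT15 and from -0.28 to 0.33 in PBRT16. The flap nuclease FEN1, which trims Okazaki fragments, was below parental cells in all 4 resistant libraries without a call (-0.28 and -0.27).

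Nucleotide supply held both a rise and falls. TK1 (chr17:78174091-78187233, minus strand), the thymidine kinase that salvages thymidine in S phase, had 3256 and 3098 in PBRT15 and 2891 and 3369 in PBRT16, against 1621 and 1969 in parental cells. It rose in PBRT15 (0.83 ± 0.16, adjusted p = 0.0141) and in PBRT16 (0.80 ± 0.16, adjusted p = 0.0155), with all resistant libraries above the parental ones. TYMS, which makes thymidylate anew and is the target of fluoropyrimidines, went the other way. TYMS had 2477 and 2089 in PBRT15 and 2409.7 and 2154 in PBRT16, against 3644 and 3579 in parental cells. Its log2 difference was -0.67 ± 0.14 in PBRT15 (adjusted p = 0.0197) and -0.66 ± 0.14 in PBRT16 (adjusted p = 0.0199). The antisense gene ENOSF1 covers 39.9% of the exons of TYMS and had a mean value of 601, against 2726 for TYMS. The value of TYMS is thus less certain.

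Of ribonucleotide reductase, which makes deoxynucleotides, the small subunit gene RRM2 fell in PBRT16. RRM2 had 12421 and 10216 in PBRT15 and 8669 and 7783 in PBRT16, against 11919 and 13829 in parental cells. PBRT15 overlapped the parental range (-0.19, adjusted p = 0.392) and PBRT16 was below it (-0.64 ± 0.16, adjusted p = 0.0324). The large subunit RRM1 had 8766 and 7440.2 in PBRT15 and 7668 and 7050.4 in PBRT16, against 9024 and 10751 in parental cells, and did not pass (-0.29 and -0.42). RRM1 and RRM2 were among the highest of the 45 per kilobase of exon, with a mean parental signal of 2336 and 1407. The lowest were GINS3 and CDT1, at 82.9 and 84.4. These are values over the length of all exons. Over the length of the canonical transcript, a choice made after seeing the data, CDT1 and GINS3 were again the lowest, at 87.5 and 192, and RRM2 and MCM7 the highest, at 3952 and 3575.

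Ratios between partner genes of the same library put these differences on a footing that does not depend on library scaling. They compare signals that also carry gene length, so only their change between groups can be read. PRIM2 over PRIM1 was 1.63 and 1.48 in PBRT15 and 1.8 and 2.11 in PBRT16, against 0.766 and 0.646 in parental cells. TK1 over TYMS was 1.31 and 1.48 in PBRT15 and 1.2 and 1.56 in PBRT16, against 0.445 and 0.55 in parental cells. CDT1 over GMNN was 0.4 and 0.377 in PBRT15 and 0.351 and 0.373 in PBRT16, against 0.158 and 0.227 in parental cells. In these 3 pairs the resistant libraries were all above the parental ones.

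In other pairs the resistant libraries were all below. RPA2 over RPA1 was 0.27 and 0.252 in PBRT15 and 0.273 and 0.299 in PBRT16, against 0.474 and 0.439 in parental cells. MCM3 over MCM2 was 3.99 and 4.02 in PBRT15 and 4.43 and 4.17 in PBRT16, against 6.88 and 5.56 in parental cells. RFC5 over RFC2 was above the parental ratio in PBRT15 and below it in PBRT16, at 1.34 and 1.43 in PBRT15 and 0.658 and 0.662 in PBRT16, against 1.24 and 1.26 in parental cells. DBF4 over CDC7 was within or near the parental range in PBRT15 and below it in PBRT16, at 2.07 and 2.05 in PBRT15 and 1.39 and 1.41 in PBRT16, against 1.89 and 2.11 in parental cells. The ratios were not tested.

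**Figure D3:**
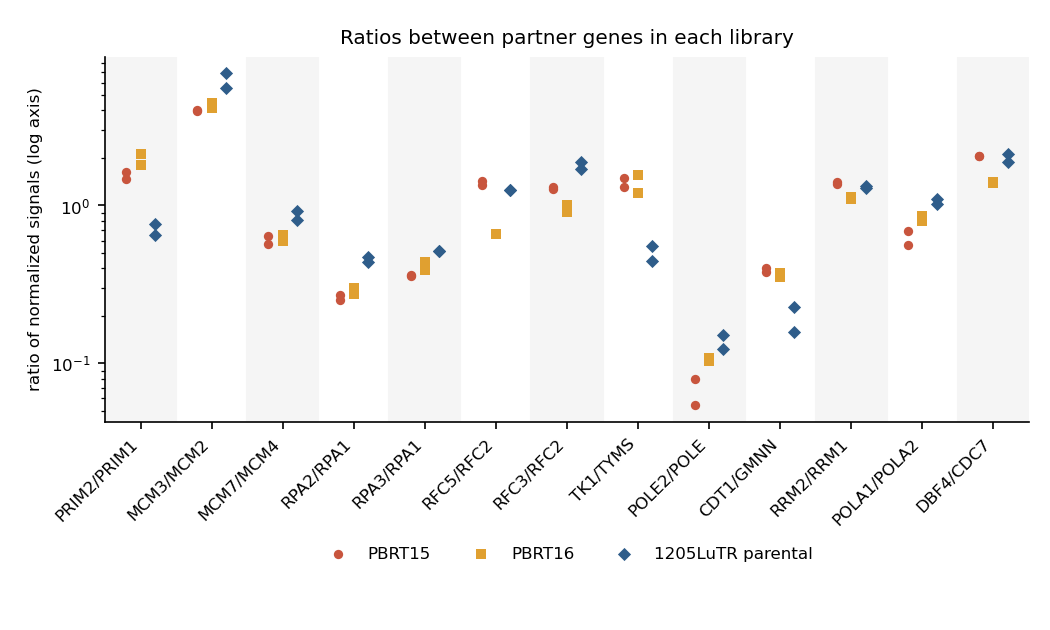
Ratio of the normalized signals of 13 pairs of partner genes in each library on a log axis, with PBRT15, PBRT16 and 1205LuTR parental from left to right within each pair. PRIM2/PRIM1, TK1/TYMS and CDT1/GMNN have their parental diamonds at the bottom, and RPA2/RPA1 and MCM3/MCM2 at the top.

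The resistant lines were also set against each other. In PBRT16 against PBRT15, 1 of the 45 fell and none rose by limma, while 8.27% of all genes fell and 7.5% rose. At an unadjusted p under 0.05 there were 4 genes, each lower in PBRT16, and the share of all genes under that level was not counted. RFC5 was the gene that passed (-0.75 ± 0.13, adjusted p = 0.0263). POLE (-0.93 ± 0.22, adjusted p = 0.0516) and GINS4 (-0.92) had larger differences with a wider spread, and RRM2 (-0.46) was the fourth. The RFC5 call was lost in all 6 fits that left out 1 library, with adjusted p values of up to 0.116 over the 15 alternatives, and its log2 difference stayed between -0.85 and -0.65. Without PBRT15 replicate 2, GINS4 passed in its place (adjusted p = 0.0494).

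RFC5 and POLE lie on chromosome 12, and genes beside them differed in the same direction between the resistant lines. For each member the median log2 difference of PBRT16 minus PBRT15 was taken over up to 25 tested genes on each side with a mean value of at least 50, a description added after the values were seen. The neighbors of RFC5 had a median of -0.46, with 46 of 50 below 0. Those of POLE had a median of -0.42, with 31 of 37 below 0. Around PRIM1, the third member on this chromosome, the median was -0.37, with 44 of 50 below 0, and PRIM1 itself was at -0.19. The neighbors of GINS4, on another chromosome, had a median of 0.04, with 21 of 50 below 0. For the 42 members elsewhere the medians of neighbors ran from -0.21 to 0.22. Across all 45 members the gene's own difference and that of its neighbors correlated at r = 0.58 (rho = 0.46), and without the 3 on chromosome 12 at r = 0.34 (rho = 0.37). These points share the same 4 libraries. Against parental cells the neighbors of RFC5 had medians of 0.39 in PBRT15 and 0.004 in PBRT16, where RFC5 had -0.19 and -0.93. Those of POLE had 0.44 and -0.10, where POLE had 0.55 and -0.38, and those of PRIM1 had 0.64 and 0.22, where PRIM1 had -0.16 and -0.35. The part of chromosomal position in the result was not tested.

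**Figure D4:**
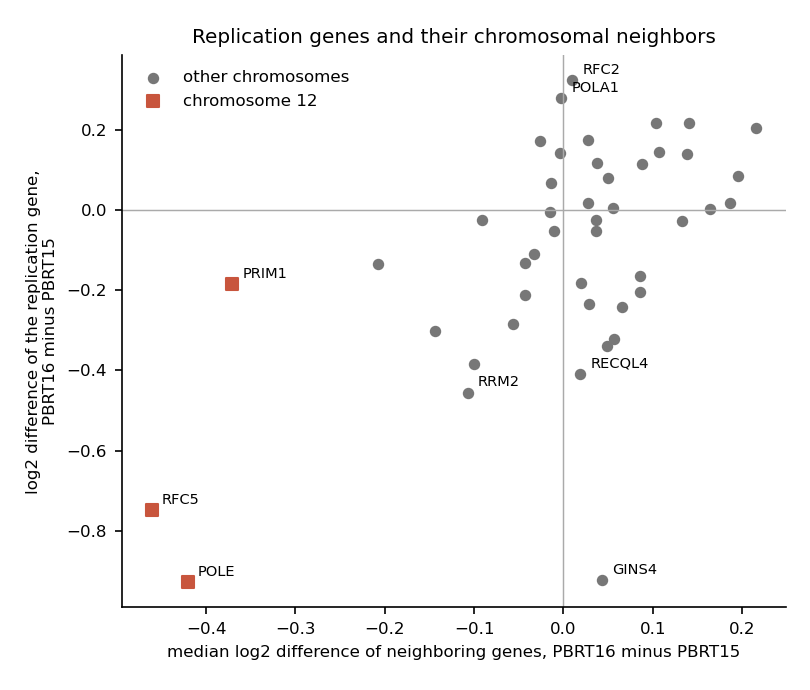
Each point is 1 of the 45 genes, with the median log2 difference (PBRT16 minus PBRT15) of its chromosomal neighbors on the horizontal axis and its own difference on the vertical axis, and squares for the 3 genes on chromosome 12. RFC5, POLE and PRIM1 stand apart on the left with neighbor medians of -0.46, -0.42 and -0.37, while GINS4 is low with neighbors near 0.

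The 2 libraries of each resistant line differed in a way that touches cell cycle genes. All 36 genes of the mitosis list were lower in replicate 2 than in replicate 1 in PBRT15 and in PBRT16, and 12 of the 36 in parental cells. Its medians on the log2 scale were -0.46 in PBRT15, -0.54 in PBRT16 and 0.06 in parental cells. The proliferation marker MKI67 had 18516 and 13434 in PBRT15 and 18057 and 12579.6 in PBRT16, against 23358 and 23312 in parental cells. Of the 45 replication genes 37 were lower in replicate 2 of PBRT15, with a median of -0.17, and 15 in replicate 2 of PBRT16, with a median of 0.10. In parental cells 20 were lower, with a median of 0.02. The part of this difference in the results was not tested. Against parental cells the mitosis list had 2 falls (5.56%) and 1 rise (2.78%) in PBRT15, with 1 of each (2.78%) in PBRT16. These shares were below those of all genes, where 19.5% fell and 21.6% rose in PBRT15, and 19% and 21.1% in PBRT16. The median log2 difference of the list was -0.32 in PBRT15 and -0.38 in PBRT16.

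**Figure D5:**
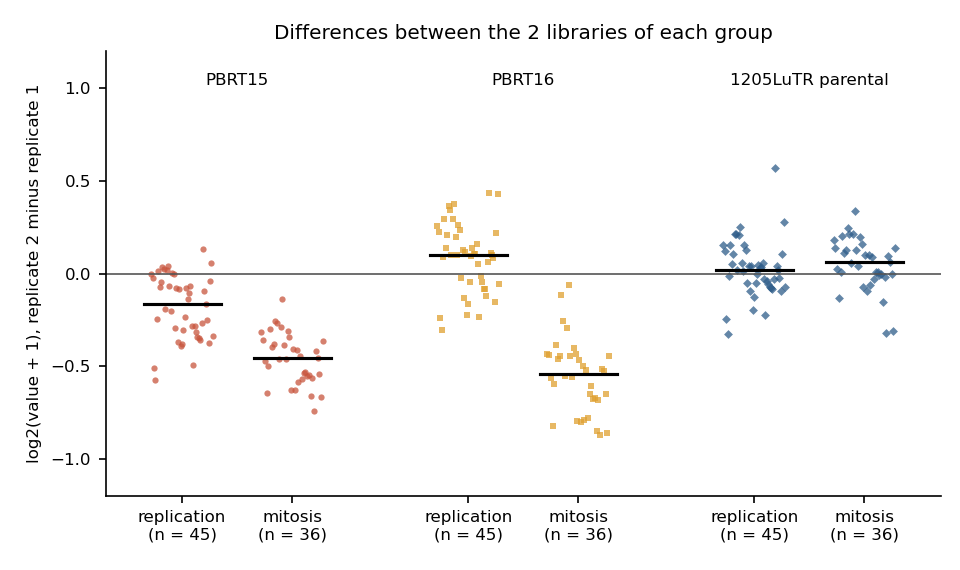
Difference between the 2 libraries of each group (replicate 2 minus replicate 1, on the log2(value + 1) scale) for the 45 replication genes and the 36 mitosis genes in PBRT15, PBRT16 and 1205LuTR parental, with black lines at the medians. The mitosis genes lie below 0 in both resistant lines, with medians of -0.46 and -0.54, and around 0 in parental cells.

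The promoter words were set beside these counts. The 18 genes with a word gave 4 falls and 1 rise in PBRT15, with 6 falls and no rise in PBRT16. The 20 matched genes without one gave 2 falls and 2 rises in PBRT15, with 6 falls and 2 rises in PBRT16. The shares over all genes were 19.5% lower and 21.6% higher in PBRT15, with 19% lower and 21.1% higher in PBRT16. The median log2 difference was -0.35 in both lines for genes with a word, and -0.19 in PBRT15 and -0.28 in PBRT16 for those without. MCM6, with its 4 words, had 5457 and 5478 in PBRT15 and 4409.7 and 5056 in PBRT16, against 5806 and 5329 in parental cells, and no call.

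Genes around the replication machinery were counted from lists chosen by name. Of 31 other replication genes, PBRT15 had 8 that fell (25.8%) and 7 that rose (22.6%), against 19.5% and 21.6% of all genes. PBRT16 had 6 (19.4%) and 4 (12.9%), against 19% and 21.1% of all genes. The polymerase delta subunits POLD1 and POLD4 and the alternative loader subunit CHTF18 rose in both lines. POLD1, the catalytic subunit, had 922 and 1068 in PBRT15 and 615 and 621 in PBRT16, against 369 and 435 in parental cells (log2 1.31 and 0.63). CHTF18 had log2 differences of 1.54 and 1.14 and POLD4 of 1.64 and 1.40. DSCC1, a partner of CHTF18 in the alternative loader, fell (-0.98 and -0.84), as did topoisomerase TOP1 (-0.77 and -1.38) and the helicase MCM9 (-0.72 and -0.83). PCNA, the clamp itself, had 6559 and 6295 in PBRT15 and 4982 and 5339 in PBRT16, against 4863 and 4982 in parental cells, and rose in PBRT15 (0.38, adjusted p = 0.0473).

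Of 21 other nucleotide supply genes, 11 (52.4%) were lower and 1 (4.76%) higher by the test in PBRT15. In PBRT16 5 (23.8%) were lower and 2 (9.52%) higher. Of all genes 19.5% were lower and 21.6% higher in PBRT15, with 19% lower and 21.1% higher in PBRT16. The gene that rose in both was SAMHD1, the enzyme that breaks deoxynucleotides down, with 997 and 719 in PBRT15 and 1661 and 778 in PBRT16, against 156 and 168 in parental cells. Its log2 difference was 2.38 in PBRT15 (adjusted p = 0.00975) and 2.81 in PBRT16 (adjusted p = 0.00604). The purine synthesis gene GART (-0.90 and -0.72) and the folate enzyme SHMT1 (-0.95 and -0.85) fell in both lines. IMPDH1, of guanine nucleotide synthesis, rose in PBRT16 (0.74) and did not pass in PBRT15 (0.35). RRM2B, the other small subunit of ribonucleotide reductase, fell in PBRT16 (-1.19) and had -0.27 in PBRT15, where it did not pass. Of 18 fork protection and checkpoint genes 6 (33.3%) fell in each line, above the shares of all genes. Those that rose were 3 (16.7%) in PBRT15 and 1 (5.56%) in PBRT16, below the shares of all genes. BLM (-0.83 and -0.85) and HUS1 (-0.84 and -0.50) fell in both, and RAD1 rose in both (0.57 and 0.95). RAD9A, its partner in the checkpoint clamp, rose in PBRT15 and did not pass in PBRT16, with 279.6 and 252 in PBRT15 and 161 and 128 in PBRT16, against 136 and 125 in parental cells.

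Upstream, the 26 genes of G1/S control gave 10 falls (38.5%) and 2 rises (7.69%) in PBRT15, against 19.5% and 21.6% of all genes. In PBRT16 they gave 9 falls (34.6%) and 1 rise (3.85%), against 19% and 21.1% of all genes. E2F1, the activator best known for these targets, had 1588 and 1443 in PBRT15 and 1744 and 2082 in PBRT16, against 2632 and 2628 in parental cells. It fell in PBRT15 (-0.80, adjusted p = 0.0114) and missed the test in PBRT16 (-0.46, adjusted p = 0.0529). Cyclin E2 (CCNE2), which drives entry into S phase, had 1466 and 1879 in PBRT15 and 1538 and 1829 in PBRT16, against 2813 and 2273 in parental cells, and did not pass (-0.61 and -0.59). The CDK inhibitor gene CDKN1B rose in both lines (1.16 and 0.79). CDKN1A, which encodes the CDK inhibitor p21, had 3365 and 5859 in PBRT15 and 252 and 296 in PBRT16, against 4268 and 5155 in parental cells. It fell in PBRT16 (-4.10 ± 0.30, adjusted p = 0.000962) and did not pass in PBRT15 (-0.08). The family members E2F5 (-1.42 and -1.28) and E2F6 (-0.81 and -1.05), both known as repressors, fell in both lines.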

How the data were processed

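RNA was sequenced from 6 libraries in 3 groups of 2 (stranded, paired-end). Per the submitters' processing notes, the authors used STAR 2.6.1a, RSEM, Picard and DESeq2 on GRCh38. The study's reporting summary gives another STAR version for its RNA-seq as a whole, and its methods name GENCODE. The deposited values are a normalized signal per gene that is not whole and whose normalization is not fully described. Whole reads could not be recovered, so no count test was run. Their sums per library, given in the report, are no exact depth, and no counting intervals are given.

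From the 60662 gene IDs, 45 pseudoautosomal copies were left out. Genes at 10 or more in at least 2 libraries, with a total of at least 15, were tested with limma 3.58.1 (R 4.3.3) on log2(value + 1), in 1 fit of 3 groups with 3 residual degrees of freedom. P-values are two-sided with Benjamini-Hochberg adjustment over all 16565 genes, and a fold change on this scale is understated for low genes. Symbols and coordinates are from GENCODE v44, which matched 60357 IDs. Promoters are from RefSeq on GRCh38.p14. MCM4, GINS4, RECQL4, MCM5, RPA2, RPA3 and POLD3 had no entry there. Levels per kilobase are values divided by the length of all exons.

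The genes and lists were chosen with earlier results of these data known. Any of the 45 could be named. From each other list the rule allowed the 3 largest rises and falls among genes called in either line, of which some are named, with E2F1, CCNE2, CDKN1A, MKI67, PCNA and the cell type markers. Alternatives varied scaling, filter, pseudocount, prior spread, the libraries fitted, a replicate block, and left out each library in turn.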

Additional observations from a re-analysis of the deposited data

Results flagged for a closer look

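PBRT16 differed from PBRT15 in 1 replication gene and 11 genes of the surrounding lists, each tested as the log2 difference of PBRT16 minus PBRT15 in the limma fit with Benjamini-Hochberg adjustment. RFC5 was at -0.75 (adjusted p = 0.0263). Among other replication genes, POLD1 was at -0.68 (adjusted p = 0.0421), TOP1 at -0.61 (0.035) and LIG1, the ligase that seals Okazaki fragments, at -0.69 (0.0217). RRM2B, the small reductase subunit induced by p53, was at -0.91 (adjusted p = 0.0166).

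In the checkpoint list, the fork protection gene TIMELESS was at -0.85 (adjusted p = 0.0165), the clamp subunit RAD9A at -0.89 (0.0296), the nuclease EXO1 at -0.68 (0.0416) and the kinase ATR at -0.54 (0.0443). In G1/S control, CDKN1A was at -4.02 (adjusted p = 0.0037), LIN9 at -0.68 (0.0446) and SKP2, which marks the CDKN1B protein for degradation, at 0.65 (0.034), the 1 gene of the 12 that was higher in PBRT16. LIG1, ATR, LIN9 and SKP2 were named after their values were seen.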

How the results depend on the processing

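Of 2025 single-gene values (45 genes, 3 comparisons, 15 alternatives), 1867 kept their side of the threshold, 112 lost a call and 46 gained one. No call came with a reversed direction, while the direction of values that stayed without a call was not compared. The number of falls in PBRT15 was 14 (31.1%) with values scaled to the same library total, against 22.04% of all genes, 4 (8.89%) with no filter, against 7.40%, 13 (28.9%) with a filter of 50, against 23.8%, and 17 (37.8%) with a prior spread that follows the level, against 22.7%. With no filter the share was near the background, as was the share as reported, while in the other settings given it was above. The prior spread that follows the level gave 5 rises (11.1%), against 24.0% of all genes. With no filter PBRT16 had 4 falls (8.89%) and 1 rise (2.22%), against 7.61% and 9.49% of all genes. PBRT16 against PBRT15 had 0 falls with no filter, in a fit of 4 libraries and with the replicate block. Of all genes 2.43%, 4.41% and 5.83% fell there. It had 3 (6.67%) with a filter of 50, against 12.3% of all genes, and 3 (6.67%) with a pseudocount of 5, against 9.79%. With the level-dependent prior spread it had 4 (8.89%), against 12.1%. Leaving out 1 library gave 1 to 3 rises and 2 to 7 falls in PBRT15, 1 to 2 rises and 3 to 11 falls in PBRT16, and 0 to 1 falls between the lines. The cause of these shifts was not tested.

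The replicate block gave 9 falls (20%) and 2 rises (4.44%) in PBRT15, against 17.3% and 20.2% of all genes. In PBRT16 it gave 12 (26.7%) and 2 (4.44%), against 17.5% and 20.1%. Between the lines it gave 0 and 0, against 5.83% and 5.27%. Deviations of same-numbered libraries correlated at 0.02, 0.04 and 0.135 over all genes and at 0.10, 0.23 and 0.36 over the 45 genes (PBRT15 and parental, PBRT16 and parental, PBRT16 and PBRT15). Not every pair was above 0.1, so the numbers were not taken to pair the samples, although the mitosis genes were lower in replicate 2 of both resistant lines. With 2 libraries a group and no counts, small changes and low genes such as CDT1 and POLE2 are the least certain.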
